A study of Ranunculus trichophyllus with 6 samples.

Results

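The genes described here are 9 regulators of the stomatal lineage measured in *Ranunculus trichophyllus*, an amphibious plant that forms different leaves on land and under water. They are the homologs of *SPCH* (AT5G53210), *MUTE* (AT3G06120), *ICE1* (AT3G26744), *TMM* (AT1G80080), *ER* (AT2G26330), *SDD1* (AT1G04110), *YDA* (AT1G63700), *MPK6* (AT2G43790) and *HDG2* (AT1G05230). A transcript was counted as a member where the best protein match in the annotation was the *Arabidopsis thaliana* protein with that identifier. This gave 12 transcripts out of 210686 in the assembly, summed into 9 homologs out of 8614 with an *Arabidopsis* match. *ER*, *YDA* and *HDG2* have 2 transcripts each and the other homologs have 1. The aligned residues were 51% identical for *SPCH*, the lowest, and 88% identical for *MPK6*, the highest. These are therefore matches by similarity, and a paralog of the named gene could not be told from its ortholog. Genes are called below by the *Arabidopsis* symbol.

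RNA was sequenced from 3 aquatic and 3 terrestrial plant samples of the same species. For the aquatic samples, week-old seedlings were submerged, and for the terrestrial samples seedlings were kept in air. Cotyledons and hypocotyls were removed from all seedlings before RNA extraction. In both conditions replicate 1 is labelled leaf at an age of 14 days, and replicates 2 and 3 are labelled leaf with shoot apical meristem at an age of 11 days. These are called the 14-day and the 11-day harvest, and between them age and tissue cannot be told apart. The study describes a later harvest. Its methods name whole plant tissues as the source of the RNA, and a figure caption names upper seedling parts with shoot apexes. The ages and tissues used here are therefore those of the labels. Nothing in the labels says how many plants went into a sample, so the p-values measure only the spread between these samples. In whole tissue, fewer cells of a type and less RNA per cell cannot be told apart. The comparison asks whether genes that build stomata differ between plants grown under water and plants grown in air.

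Stomata are pores in the leaf epidermis, each formed by a pair of guard cells, through which land plants exchange gas. In *Arabidopsis*, SPEECHLESS starts the asymmetric divisions of young epidermal cells and MUTE ends them by committing a cell to become a guard mother cell, and both work as pairs with ICE1 (also called SCREAM). Secreted peptides are sensed by the receptor kinase ERECTA and the receptor-like protein TOO MANY MOUTHS, and a kinase cascade that starts with YODA and ends with MPK6 and its relative restrains SPEECHLESS. Lineage cells are few and short-lived, found mostly in young growing leaves, whereas ERECTA, YODA and MPK6 also act in many other cells.

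Total counts were between 25345718 and 33978729 per library. In aquatic replicate 1, 3 transcripts held 36.2% of all counts, against at most 0.987% in the other libraries, and none of them belongs to a member. CPM below are counts per 1000000 counts of homologs after TMM scaling, so those transcripts do not enter them. Homologs held 33.4% of the counts of aquatic replicate 1 and 54.2% to 56.3% in the other libraries. The homologs of *STM* and *KNAT1*, which mark the shoot apex, had 0 counts in both 14-day libraries and 9.35 to 28.9 CPM in the 11-day libraries of both conditions.

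The lineage genes *TMM* and *ICE1* were lower in aquatic than in terrestrial plants when all 6 libraries were fitted with the harvest as a term. *SPCH*, *MUTE* and *ER* were lower too in the 11-day libraries alone. There the 2 aquatic libraries lay under the 2 terrestrial ones for these 5 genes, but the conditions did not overlap for any of the 9 members. The share of all homologs without overlap at 11 days was not counted, so this separation does not mark out the 5. *SDD1*, *YDA*, *MPK6* and *HDG2* did not pass the test in either fit. With edgeR's quasi-likelihood test and Benjamini-Hochberg adjusted p under 0.05, 0 of the 9 members were higher and 2 were lower in aquatic plants, beside 9.6% of all 8155 homologs tested called higher and 6.78% called lower. In the 11-day libraries 0 members were higher and 5 were lower, beside 10.8% and 8.93% of 8211 homologs tested. At an unadjusted p under 0.05, 2 members (*HDG2* and *YDA*) were higher in both fits, while 4 were lower in all libraries and 5 in the 11-day libraries. Of all homologs tested, 3063 of 8155 and 3147 of 8211 had such a p in either direction. DESeq2, run on all 6 libraries, called *HDG2* and *YDA* higher and 4 members lower (*TMM*, *ICE1*, *SPCH* and *ER*). Beside them it called 1371 of 8155 homologs higher and 1313 lower. The limma fits on log2 FPKM called 2 members lower, *ICE1* and *ER*, and 0 higher. On log2(FPKM + 1), limma called 795 of 8590 homologs lower and 705 higher. With no term for the harvest 0 members passed in edgeR, beside 25 higher and 9 lower of all 8155 homologs tested. All 9 members passed the filter on low counts. The median log2 fold change of the members was -1.40, against -0.02 over all homologs tested.

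**Figure D1:**
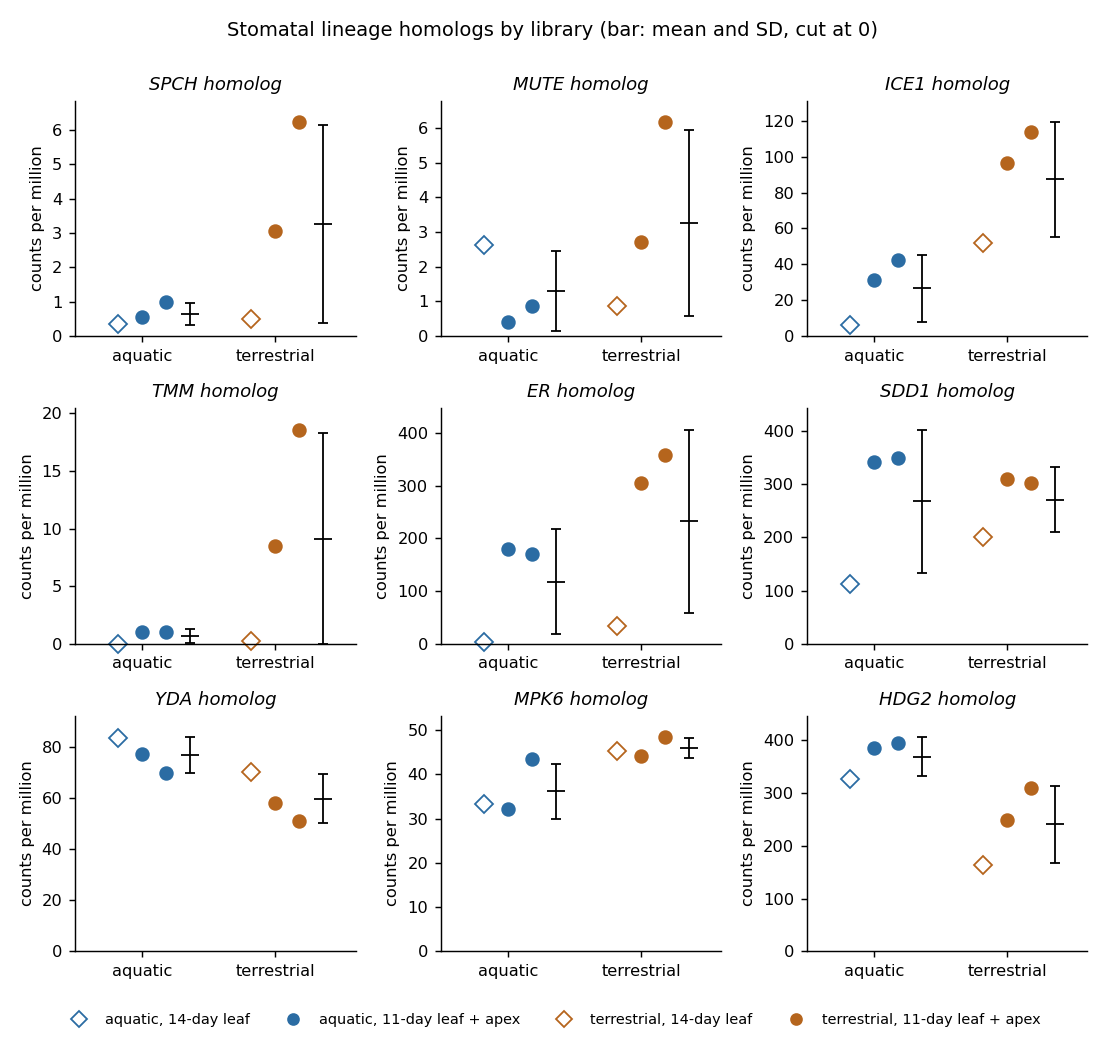
CPM of the 9 member homologs in each library, aquatic on the left of each panel and terrestrial on the right, with 14-day libraries as open diamonds, 11-day libraries as filled circles and a bar for the mean ± SD of the 3 libraries. *TMM* lay at 0 to 1.05 CPM in the aquatic libraries and at 8.51 and 18.6 CPM in the 11-day terrestrial libraries, while *HDG2* lay between 327 and 394 CPM in the aquatic libraries, above the 163 to 309 CPM of the terrestrial ones.

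Among the transcription factors that start and move the lineage, *ICE1* had the highest mean TPM of the helix-loop-helix factors in both conditions and passed the test over all libraries. *ICE1* had 5.94, 31.2 and 42.6 CPM in aquatic replicates 1, 2 and 3, against 51.9, 96.3 and 114 CPM in terrestrial replicates 1, 2 and 3. All aquatic libraries were below all terrestrial libraries. The fit gave a log2 fold change of -2.001 ± 0.383 (SE), with 0.0311 as the adjusted p. With the replicate number as a block the log2 fold change was -2.02 and the adjusted p 0.0738, which does not pass. That block fit called 327 of all 8155 homologs higher and 118 lower. The call was also lost without terrestrial replicate 2 (adjusted p = 0.0776) or 3 (0.118) and without aquatic replicate 2 (0.108) or 3 (0.0524), at log2 fold changes from -2.287 to -1.999. With all libraries 783 homologs were called higher and 553 lower. In the same order, the fits with a library left out called 119 and 39, 53 and 15, 0 and 0, and 446 and 155. The lost call cannot be told apart from this drop in calls over all homologs. Within the 11-day harvest the log2 fold change was -1.50 ± 0.20 (SE, adjusted p = 0.0160). In the single pair of 14-day libraries *ICE1* had 66 counts in the aquatic and 837 counts in the terrestrial one, a CPM 8.73-fold lower in the aquatic library, against 2.83-fold lower in the 11-day libraries summed. The difference between those effects did not pass the interaction test (log2 difference -1.62, adjusted p = 0.0929).

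*SPCH*, which starts the lineage, was per length the least abundant member in each of the 4 11-day libraries. It had 4, 8 and 16 counts in aquatic replicates 1, 2 and 3, against 8, 45 and 97 counts in terrestrial replicates 1, 2 and 3, which are 0.36, 0.55 and 0.99 CPM against 0.50, 3.06 and 6.24 CPM. The groups overlap because the 14-day terrestrial library was as low as the aquatic ones. Over all libraries the log2 fold change was -2.16 ± 0.59 (SE) and did not pass (adjusted p = 0.0668). In the 11-day libraries it was -2.57 ± 0.52 (SE) and passed (adjusted p = 0.0338), with a CPM 6.02-fold lower in the summed aquatic libraries. The ratio of these sums was 0.166, with an exact 95% interval of 0.103 to 0.257 that covers counting error only, as do all such intervals below. At 14 days the ratio was 0.727 with an interval of 0.160 to 2.71, so a difference in either direction was not detectable at this depth.

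*MUTE*, which acts after *SPCH*, had 29, 6 and 14 counts in aquatic replicates 1, 2 and 3, against 14, 40 and 96 counts in terrestrial replicates 1, 2 and 3. The order of the conditions turned with the harvest. In the 11-day libraries the 0.41 and 0.86 CPM of the aquatic plants lay under the 2.72 and 6.17 CPM of the terrestrial plants, with a log2 fold change of -2.77 ± 0.59 (SE, adjusted p = 0.0383). In the 14-day pair the aquatic library had 2.61 CPM and the terrestrial library 0.87 CPM, a ratio of 3.01 with a counting interval of 1.54 to 6.17 and no replicate. Over all libraries the log2 fold change was -1.40 ± 1.08 (SE) and did not pass (adjusted p = 0.389), and neither did the difference between the harvests (log2 difference 4.35, adjusted p = 0.106).

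*HDG2* encodes a homeodomain factor of the epidermis that in *Arabidopsis* promotes stomatal differentiation. It had 327, 386 and 394 CPM in aquatic replicates 1, 2 and 3, against 163, 249 and 309 CPM in terrestrial replicates 1, 2 and 3. All aquatic libraries were above all terrestrial libraries, by a log2 fold change of 0.66 ± 0.17 (SE), but this missed the threshold (adjusted p = 0.0579). DESeq2 called it higher (log2 fold change 0.64, adjusted p = 0.00629). The sum hides a split between its 2 transcripts, described further on.

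Of the receptors, *TMM* had the larger fitted fold difference in the count fits. It had 0, 15 and 17 counts in aquatic replicates 1, 2 and 3, against 4, 125 and 289 counts in terrestrial replicates 1, 2 and 3. The CPM was 0, 1.03 and 1.05 in the aquatic libraries and 0.25, 8.51 and 18.6 in the terrestrial libraries. Both aquatic 11-day libraries were under both terrestrial ones, and the groups overlap because the 14-day terrestrial library was as low as the aquatic ones. At 14 days a difference in either direction was not detectable at this depth. The log2 fold change was -3.72 ± 0.47 (SE, adjusted p = 0.0155), and it kept its call with the replicate number as a block (-3.63, adjusted p = 0.0407) and in the 11-day libraries alone (-3.69 ± 0.48, adjusted p = 0.0159). The CPM of the summed 11-day aquatic libraries was 13.2-fold lower than that of the terrestrial ones, a ratio of 0.0760 with a counting interval of 0.0513 to 0.109. On the log2(FPKM + 1) and log2(FPKM + 0.1) scales, limma gave -1.40 (adjusted p = 0.0970) and -2.64 (adjusted p = 0.0555), which did not pass. The call was also lost without terrestrial replicate 3 (log2 fold change -3.12, adjusted p = 0.0718), aquatic replicate 2 (-3.72, 0.0759) or aquatic replicate 3 (-3.74, 0.0586). As given for *ICE1*, these fits called fewer of all homologs, and without aquatic replicate 2 they called 0. No fold can be given for the 14-day pair, since 0 counts allow up to 3 counts and the terrestrial library had 4.

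*ER* had 2.79, 180 and 171 CPM in aquatic replicates 1, 2 and 3, against 33.0, 305 and 358 CPM in terrestrial replicates 1, 2 and 3. Within each harvest the aquatic libraries were the lower ones. The sizes differed, with a CPM 11.8-fold lower in the aquatic 14-day library (31 counts, against 532 in the terrestrial one) and 1.89-fold lower in the summed 11-day aquatic libraries (5394 counts, against 10045). In the 11-day libraries the log2 fold change was -0.91 ± 0.13 (SE, adjusted p = 0.0182), and over all libraries it was -1.66 ± 0.57 (SE) and did not pass (adjusted p = 0.102). Over the same 6 libraries it passed in DESeq2 (-1.73, adjusted p = 0.00739) and in limma on log2(FPKM + 1) (-1.25, adjusted p = 0.0135) and log2(FPKM + 0.1) (-1.48, adjusted p = 0.0277). *ER* was the 1 member whose aquatic effect differed between the harvests, by a log2 difference of -2.64 ± 0.27 (SE, adjusted p = 0.0168) in edgeR's interaction test. Beside it, 3.95% of all homologs tested were called lower and 0.662% higher in that test. With 1 library per condition at 14 days, the spread behind this test is that of the 11-day libraries.

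*SDD1* encodes a subtilisin-like protease that limits the number of stomata in *Arabidopsis*. It had 112, 343 and 349 CPM in aquatic replicates 1, 2 and 3, against 200, 311 and 302 CPM in terrestrial replicates 1, 2 and 3. In CPM the aquatic library was the lower one at 14 days, and the aquatic libraries were slightly higher at 11 days. In TPM the 11-day libraries overlapped, at 61.1 and 62.1 in aquatic against 61.6 and 62.6 in terrestrial plants. The log2 fold change was -0.16 ± 0.24 (SE, adjusted p = 0.648) over all libraries and 0.18 ± 0.11 (SE, adjusted p = 0.288) in the 11-day libraries, so the sign turned when replicate 1 was left out. The difference between the harvests did not pass (log2 difference -1.01, adjusted p = 0.0710).

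The kinases of the cascade varied least over the libraries in CPM. *YDA*, at its head, had 83.8, 77.2 and 69.9 CPM in aquatic replicates 1, 2 and 3, against 70.3, 58.3 and 51.0 CPM in terrestrial replicates 1, 2 and 3. Each aquatic library was above the terrestrial library of its harvest, with a log2 fold change of 0.37 ± 0.11 (SE) that did not pass (adjusted p = 0.0798) except in DESeq2 (0.35, adjusted p = 0.0367). *MPK6*, at its end, had 33.2, 32.1 and 43.4 CPM in aquatic plants against 45.2, 44.2 and 48.4 CPM in terrestrial plants. All 3 aquatic libraries lay under the terrestrial ones, with a log2 fold change of -0.34 ± 0.15 (SE) that did not pass (adjusted p = 0.166).

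**Figure D2:**
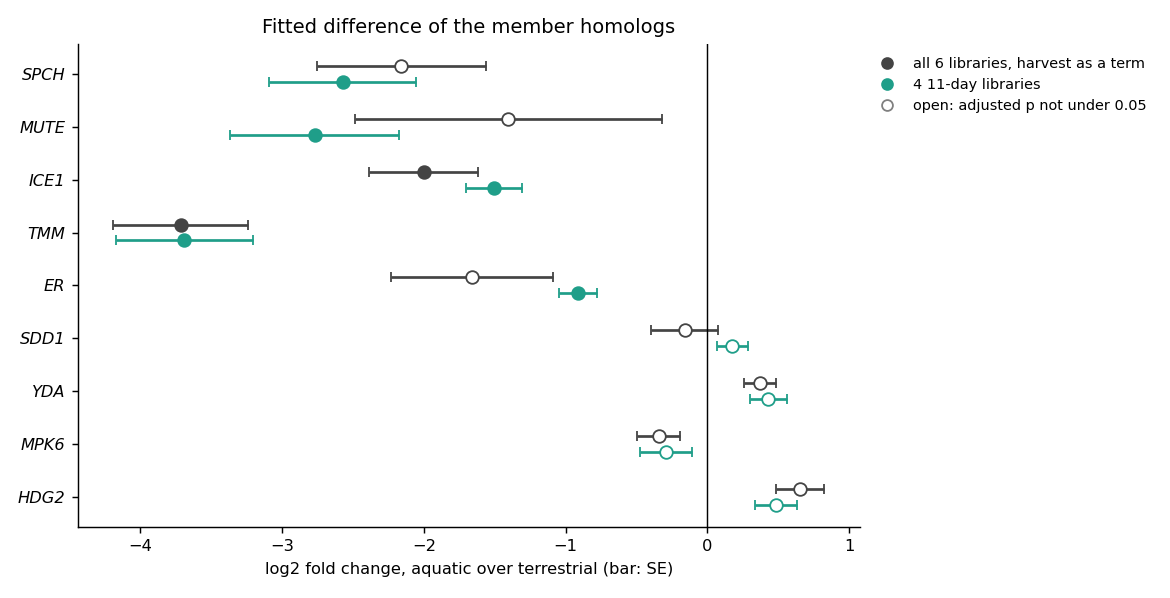
Fitted log2 fold change, aquatic over terrestrial, with its SE for the 9 members, from all 6 libraries with the harvest as a term (dark) and from the 4 11-day libraries (green), with filled points where the adjusted p was under 0.05. *TMM* lay near -3.7 in both fits, *SPCH* and *MUTE* passed only in the 11-day libraries, and *YDA* and *HDG2* lay to the right of 0 without passing.

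Not overlapping in CPM between the conditions were 3 of the 9 members, *ICE1* and *MPK6* with every aquatic library lower and *HDG2* with every aquatic library higher. For *MPK6* this rested on the scaling. Scaled over transcripts instead of homologs, aquatic replicate 3 had 22.5 CPM and terrestrial replicate 1 had 22.4 CPM. Over all homologs tested, 11.8% had every aquatic library lower and 13.7% had every aquatic library higher.

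Several members also differed between the harvests. In the fit of all libraries 4 of the 9 members were lower in 14-day leaf than in 11-day leaf with apex and 0 were higher, beside 18.4% and 15.4% of all homologs tested. At an unadjusted p under 0.05 and in DESeq2 also 0 were higher, while DESeq2 called 1738 of all 8155 homologs higher. The 4 were *TMM* (log2 fold change, 14-day over 11-day, -5.79 ± 0.69, adjusted p = 0.00694), *ER* (-4.36 ± 0.73, adjusted p = 0.0139), *ICE1* (-1.71 ± 0.43, adjusted p = 0.0353) and *SDD1* (-1.10 ± 0.26, adjusted p = 0.0318), each ± SE. Within terrestrial plants *TMM* had 4 counts at 14 days against 414 in the summed 11-day libraries, and *ER* had 532 against 10045. *SPCH* at -2.43 ± 0.73 did not pass in edgeR (adjusted p = 0.0568), although its terrestrial libraries had 8 counts at 14 days against 142 in the summed 11-day ones. DESeq2 called *SPCH* lower (-2.23, adjusted p = 0.0215). It called 5 members lower, beside 1872 of all 8155 homologs. At an unadjusted p under 0.05 in edgeR, 6 members were lower, and 3802 of 8155 homologs had such a p in either direction. *MUTE* (0.08 ± 1.13, adjusted p = 0.964), *HDG2* (-0.51 ± 0.18, adjusted p = 0.0867), *YDA* (0.28 ± 0.12, adjusted p = 0.130) and *MPK6* (-0.11 ± 0.16, adjusted p = 0.629) did not pass in edgeR, and neither did they in DESeq2.

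Levels between genes were compared in TPM, which is per length of transcript. Unlike CPM, TPM is scaled over all transcripts, so those that held 36.2% of the counts of aquatic replicate 1 enter it. *HDG2* had the highest mean in aquatic plants, at 71.4 ± 12.4 TPM, and in terrestrial plants, at 54.8 ± 18.8 TPM (SD, n = 3 each). It was the highest member in each aquatic library, but in no terrestrial one, where *SDD1* was highest at 14 days (37.96 TPM, against 35.2 TPM of *HDG2*) and *ER* at 11 days (65.5 and 80.3 TPM, against 56.4 and 72.7 TPM of *HDG2*). *SDD1* followed with 46.8 ± 25.6 TPM in aquatic and 54.1 ± 13.9 TPM in terrestrial plants, and *ER* with 22.7 ± 19.3 TPM in aquatic and 50.8 ± 38.9 TPM in terrestrial plants. In aquatic plants *MPK6* (13.6 ± 2.94 TPM), *YDA* (11.5 ± 0.567 TPM) and *ICE1* (9.08 ± 6.60 TPM) came next, whereas in terrestrial plants the order was *ICE1* (33.9 ± 13.4 TPM), *MPK6* (20.01 ± 1.67 TPM) and *YDA* (10.4 ± 1.24 TPM). The lowest 3 means were those of *MUTE*, *TMM* and *SPCH* in both conditions, although in the 14-day aquatic library *ER* (0.47 TPM) and *ICE1* (1.79 TPM) lay under *MUTE* (2.17 TPM). *MUTE* averaged 1.13 ± 0.925 TPM in aquatic and 3.53 ± 3.01 TPM in terrestrial plants, *TMM* 0.263 ± 0.228 TPM and 3.98 ± 4.08 TPM, and *SPCH* 0.2 ± 0.111 TPM and 1.20 ± 1.09 TPM. Over the 3 libraries of a condition nearly all neighbours in the order overlapped in range, and the exceptions were *MPK6* above *YDA* and *YDA* above *TMM* in terrestrial plants.

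**Figure D3:**
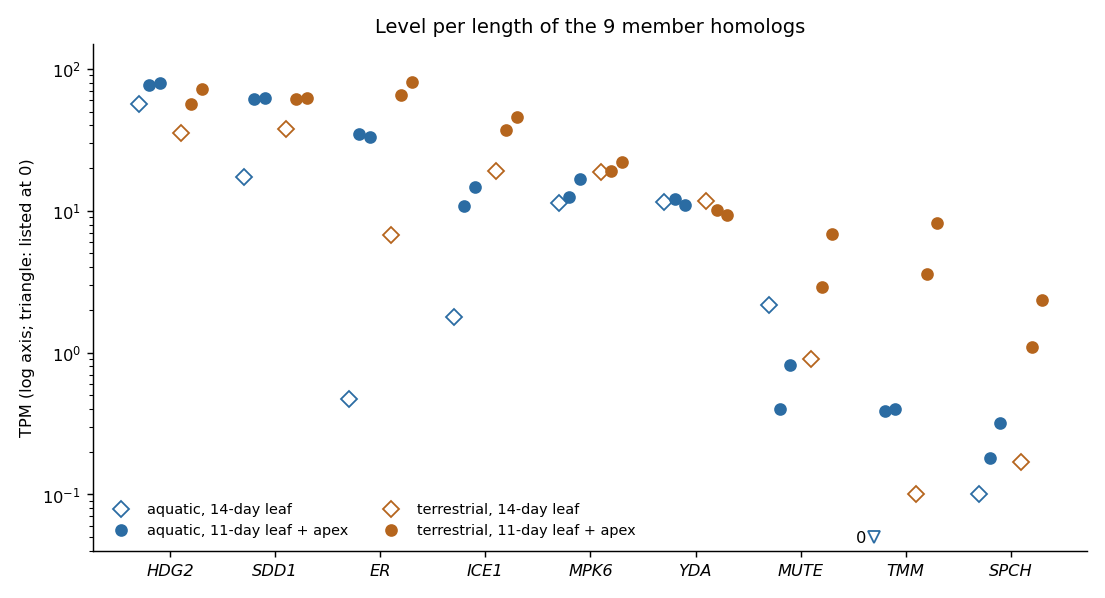
TPM of each member in each library on a log axis, ordered from left to right by the mean of the conditions, aquatic left of terrestrial within each gene, with 14-day libraries as open diamonds and a triangle for the library listed at 0. *HDG2* reached 79.4 TPM in aquatic replicate 3, and *SPCH* did not exceed 0.32 TPM in any aquatic library.

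Tested one by one over 58039 transcripts, 0 of the 12 member transcripts were higher and 2 were lower in aquatic plants, beside 6.42% and 4.04% of all transcripts tested. At an unadjusted p under 0.05, 1 transcript was higher and 6 were lower, and 15840 of all 58039 transcripts had such a p in either direction. The 2 were those of *TMM* (c54858_g1_i1, log2 fold change -3.80, adjusted p = 0.00948) and *ICE1* (c54328_g1_i1, -2.09, adjusted p = 0.0246). In 14-day against 11-day libraries 0 member transcripts were higher and 5 were lower, beside 7.27% and 9.73% of all transcripts tested, and the 5 were those of *TMM*, *ICE1* and *SDD1* and both of *ER*. In the test of the difference between harvests 0 were higher and 3 were lower, beside 0.374% and 1.77% of all transcripts tested. These 3 were both transcripts of *ER* and 1 of *HDG2*.

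The 2 transcripts of *HDG2* come from separate components of the assembly, with 69% and 70% identity to the *Arabidopsis* protein, and differed in their pattern. The major one, c60188_g1_i1, had 3620, 4918 and 5639 counts in aquatic replicates 1, 2 and 3, against 2109, 2700 and 3689 counts in terrestrial replicates 1, 2 and 3, and lay at a log2 fold change of 0.83 ± 0.21 (SE) that did not pass (adjusted p = 0.0604). The minor one, c61371_g1_i1, had 5, 687 and 752 counts in aquatic replicates 1, 2 and 3, against 519, 964 and 1111 counts in terrestrial replicates 1, 2 and 3. Each aquatic library was lower than the terrestrial library of its harvest, by far the most at 14 days. Its share of the counts of the homolog was 0.138%, 12.3% and 11.8% in aquatic replicates 1, 2 and 3, against 19.7%, 26.3% and 23.1% in terrestrial replicates 1, 2 and 3, with no overlap. Over all libraries its log2 fold change of -1.81 ± 1.02 (SE) did not pass (adjusted p = 0.313), while the difference between the harvests passed (log2 difference -5.60 ± 0.39, adjusted p = 0.00588). The harvest difference of *HDG2* as a sum did not pass (log2 difference 0.52, adjusted p = 0.369).

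The 2 transcripts of *ER* and the 2 of *YDA* are isoforms of 1 component each, so the counting could divide shared reads between them. The isoforms of *ER* had the same pattern. c62159_g2_i1 had 10, 1220 and 1357 counts in aquatic replicates 1, 2 and 3, against 250, 2183 and 2638 counts in terrestrial replicates 1, 2 and 3, and c62159_g2_i2 had 21, 1396 and 1421 counts in aquatic against 282, 2294 and 2930 counts in terrestrial plants. Their log2 differences between the harvests were -3.19 (adjusted p = 0.0147) and -2.32 (adjusted p = 0.0377). The isoforms of *YDA* held near-equal shares in every library, with c62269_g1_i1 at 49.1% to 50.4% in aquatic and 48.0% to 50.6% in terrestrial plants.

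**Figure D4:**
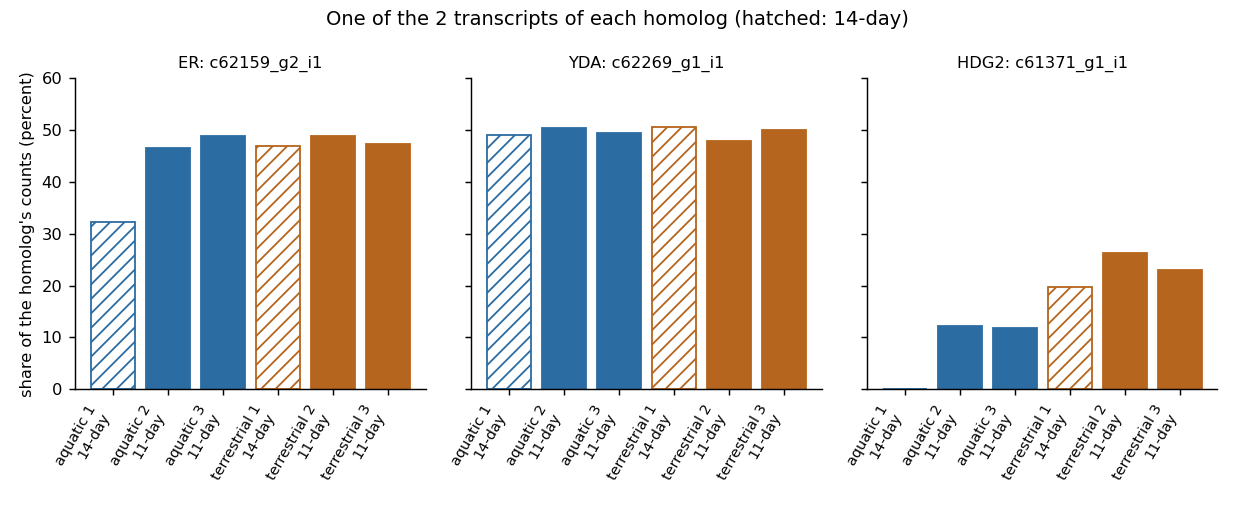
Share of a homolog's counts held by 1 of its 2 transcripts, in percent, for *ER*, *YDA* and *HDG2* in each library, aquatic left of terrestrial, with 14-day libraries hatched. The share of the *HDG2* transcript c61371_g1_i1 was 0.138% to 12.3% in aquatic and 19.7% to 26.3% in terrestrial libraries, whereas that of *YDA* stayed between 48.0% and 50.6%.

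Further genes known from *Arabidopsis* to act in the stomatal lineage were taken from a list of 42, of which 14 had a match and were tested, and the other genes were not analysed here. In aquatic plants 5 of the 14 were higher and 1 was lower, beside 9.6% and 6.78% of all homologs tested, with a median log2 fold change of -0.30. *MKK9*, a kinase kinase of the cascade, had 110, 145 and 148 CPM in aquatic replicates 1, 2 and 3, against 37.0, 31.3 and 15.6 CPM in terrestrial replicates 1, 2 and 3 (log2 fold change 2.29 ± 0.37, SE, adjusted p = 0.0212). The conditions did not overlap. *SERK2*, a co-receptor kinase, averaged 132 ± 63.0 CPM in aquatic and 68.2 ± 30.7 CPM in terrestrial plants (SD, n = 3 each, log2 fold change 0.95, adjusted p = 0.0153). *COP1*, a ubiquitin ligase that represses stomata in the dark, averaged 114 ± 44.3 CPM in aquatic and 62.4 ± 13.9 CPM in terrestrial plants (0.82, adjusted p = 0.0221), and *BSL1*, a phosphatase, 117 ± 35.0 CPM and 75.7 ± 12.3 CPM (0.60, adjusted p = 0.0297).

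Both genes of the polarity complex that had a match passed the test, in opposite directions. *BRXL2*, a partner of the polarity switch of dividing lineage cells, had 5.95, 11.8 and 11.8 CPM in aquatic replicates 1, 2 and 3, against 9.17, 17.5 and 21.3 CPM in terrestrial replicates 1, 2 and 3 (log2 fold change -0.69 ± 0.15, SE, adjusted p = 0.0403). *POLAR*, a scaffold of the same complex, had 48.1, 11.0 and 6.90 CPM in aquatic plants against 6.82, 1.70 and 1.22 CPM in terrestrial plants (2.69 ± 0.26, adjusted p = 0.0114). The *POLAR* match rests on 24% identity, far less than that of any member, so its name is uncertain. With the replicate number as a block, *SERK2* (adjusted p = 0.0457) and *POLAR* (0.0246) passed, and *MKK9* (0.0558), *BSL1* (0.0787), *COP1* (0.0585) and *BRXL2* (0.0894) did not. Without aquatic replicate 2 or terrestrial replicate 3, 0 of the 6 passed in edgeR, without terrestrial replicate 2 only *POLAR* passed, and without aquatic replicate 3 only *POLAR* and *SERK2*. As given for *ICE1*, each of these fits and the block fit called fewer of all homologs, and 0 without aquatic replicate 2. *BRXL2* did not pass without aquatic replicate 1 (adjusted p = 0.0545) or without terrestrial replicate 1 (adjusted p = 0.0584) either.

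Markers of the cell types that the tissue could hold were set beside the members. Of 9 listed guard cell genes 3 had a match (*MYB60*, *BLUS1* and *ALMT12*), and their summed CPM was 0.540, 10.2 and 12.8 in aquatic replicates 1, 2 and 3, against 110, 31.5 and 29.1 in terrestrial replicates 1, 2 and 3. All aquatic libraries were lower, and the sum was highest in the 14-day terrestrial library, where *TMM* and *SPCH* had 4 and 8 counts. *BLUS1*, a kinase of the blue light response of guard cells, passed the test on its own (log2 fold change -4.90, adjusted p = 0.0205), but not with the replicate number as a block (adjusted p = 0.0640). The block fit called fewer of all homologs, as given for *ICE1*. *MYB60* (-2.99, adjusted p = 0.116) and *ALMT12* (-1.54, adjusted p = 0.438) did not pass over all libraries. In the 11-day libraries *BLUS1* (-3.78, adjusted p = 0.00948) and *MYB60* (-1.82, 0.0162) passed. *ALMT12* did not (-0.19, 0.562), with 5.57 and 7.09 CPM in aquatic against 7.28 and 7.20 CPM in terrestrial plants. Of 7 epidermis genes 3 had a match, with a summed CPM of 605, 1061 and 1151 in aquatic and 1010, 771 and 844 in terrestrial plants, and 1 of them, *ABCG11*, was higher in aquatic plants (0.90, adjusted p = 0.0200, with the block 0.0608) while *FDH* and *PDF2* did not pass. *FDH* had 31.6 CPM in aquatic replicate 1 and 456 to 677 CPM in the other libraries. The matches of *MYB60*, *ALMT12* and *PDF2* include transcripts with less identity than any member, so those names are uncertain. The part of these cell types in the differences between members was not tested.

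For the shoot apex and dividing cells, 8 of 12 listed genes had a match. Their summed CPM was 25.9, 326 and 293 in aquatic replicates 1, 2 and 3, against 39.5, 469 and 596 in terrestrial replicates 1, 2 and 3, so the sum was lower at 14 days, as were *TMM*, *SPCH* and *ER* in terrestrial plants. In aquatic plants 4 of the 8 were lower and 0 were higher, both over all libraries and in the 11-day libraries alone, while with the replicate number as a block 1 was lower (*CLV1*, adjusted p = 0.0464). They were *CLV1*, a receptor kinase of the apex, (log2 fold change -0.96, adjusted p = 0.0156), and the cell division genes *CDKB2;1* (-0.996, 0.0463), *AUR1* (-0.98, 0.0308) and *KNOLLE* (-1.24, 0.0328). The adjusted p with the block was 0.105 for *CDKB2;1*, 0.0686 for *AUR1* and 0.0841 for *KNOLLE*. Of all 8155 homologs the block fit called 118 lower, fewer than the main fit. The apex genes *STM* (0.40, adjusted p = 0.492) and *KNAT1* (0.92, adjusted p = 0.0883) did not pass. The part of apex or dividing cells in the differences between members was not tested.

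**Figure D5:**
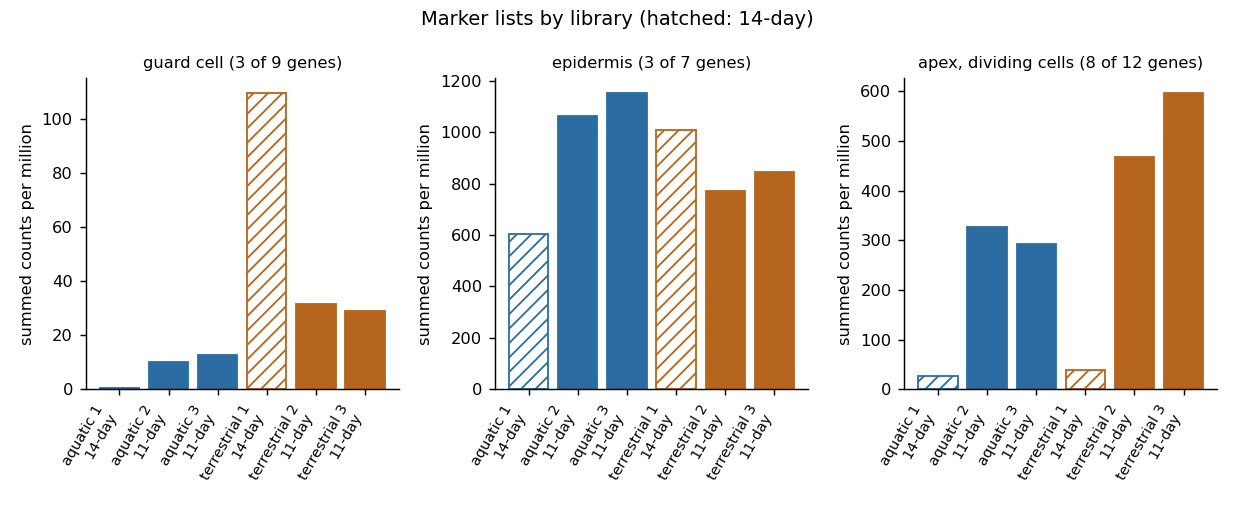
Summed CPM of the matched marker genes of guard cells, of the epidermis and of the shoot apex with dividing cells in each library, aquatic left of terrestrial, with 14-day libraries hatched. The guard cell sum was at most 12.8 in aquatic and at least 29.1 in terrestrial libraries, and the sum for apex and dividing cells was 25.9 and 39.5 in the aquatic and terrestrial 14-day libraries, under all 11-day libraries.

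The GO terms of the annotation are those of the matched *Arabidopsis* proteins, so they give no separate support for the choice of members. They put 6 of the 9 members (*ER*, *HDG2*, *SDD1*, *SPCH*, *TMM* and *YDA*) under stomatal complex morphogenesis, a term held by 68 homologs. Stomatal complex development, held by 5 homologs, named *MPK6*, *MUTE* and *SPCH*. *ICE1* had neither of these terms.

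For the pattern over the 6 libraries, the 3 homologs most like *TMM* in log2(CPM + 1), out of 7299 with a mean of at least 5 CPM, were *TEX1*, AT1G73230 and AT3G30841, with Pearson coefficients of 0.997, 0.996 and 0.993. Their range was narrow, with *TEX1* at 28.8 to 31.8 CPM in aquatic and 29.7 to 45.3 CPM in terrestrial plants, where *TMM* spanned 0 to 1.05 CPM and 0.25 to 18.6 CPM. Those most like *SPCH* were *Drg1-1* (0.991), *TEX1* (0.989) and AT1G02870 (0.987). Those most like *ICE1* were *FUC95A*, *LAC11*, which encodes a laccase, and AT1G67510, each with a coefficient of 0.996. *FUC95A* had 0.18, 14.3 and 16.9 CPM in aquatic replicates 1, 2 and 3, against 29.8, 106 and 124 CPM in terrestrial replicates 1, 2 and 3. These coefficients describe 6 points that share 2 harvests, and are given with no test.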

How the data were processed

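RNA of 3 aquatic and 3 terrestrial samples, grouped by their labels, was sequenced, assembled de novo with Trinity and quantified. The authors name TopHat and Cufflinks, with no versions, and the layout of the library files is that of RSEM. The expected counts deposited by the authors are estimated fragments per transcript, and all were whole numbers. The TPM values deposited by the authors are scaled to a fixed sum per library after division by length, and the deposited FPKM values are per kilobase of transcript and per sequenced fragments, before the quantile normalization of the methods. The deposited annotation table gives each match with its percent of identical residues and its bit score, and 6 columns of values per library in it were not used here. The deposited tables on leaf GO terms hold the authors' summed FPKM and log2 ratios and were not used here.

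Counts were summed per *Arabidopsis* match and tested with edgeR 4.0.16 in R 4.3.3 by the quasi-likelihood test (terms for harvest and condition, TMM scaling, counts of at least 10, Benjamini-Hochberg adjustment over all homologs or transcripts tested, threshold 0.05). In addition, the difference between harvests was fitted as an interaction term, per transcript only after seeing the data, and so was the harvest effect per transcript. Alternatives used DESeq2 1.42.0, limma 3.58.1 on log2(FPKM + 1) and log2(FPKM + 0.1), other filters and left-out libraries. Ratios have exact conditional 95% intervals (scipy 1.17.1), and figures were drawn with matplotlib 3.10.9. The edgeR step was tested on simulated data. Deviations from the condition means correlated between aquatic and terrestrial libraries of the same number (0.663, 0.547 and 0.47 for replicates 1, 2 and 3), as they did between replicates 2 and 3 crossed (0.598 and 0.48), so the numbers were taken as pairs and mostly carry the harvest.

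The members and lists were chosen with earlier results of these data known. Named are all members and their transcripts, the pathway genes past the threshold, and the 3 homologs most like *TMM*, *ICE1* and *SPCH*. Marker genes are named where a result turns on them and were picked after their values were seen.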

Additional observations from a re-analysis of the deposited data

Results flagged for a closer look

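The effect of the aquatic condition differed between the 14-day and the 11-day harvest, by edgeR's interaction test, for *ER* among the members (log2 difference -2.64, adjusted p = 0.0168). Among the other listed genes it differed for *CRSP*, a protease of the peptide pathway (-4.34, adjusted p = 0.0120), for *PDF2* (-2.99, adjusted p = 0.0383) and *FDH* (-4.79, adjusted p = 0.00902) of the epidermis, and for *MYB60* (-5.95, adjusted p = 0.0143) and *ALMT12* (-7.63, adjusted p = 0.00965) of guard cells. In all 6 the aquatic 14-day library was the lowest, with 0.540 CPM of *CRSP* against 11.3 CPM in the terrestrial 14-day library. Identity was 45% for *CRSP*, 44% to 46% for *PDF2*, 45% to 64% for *ALMT12* and 50% to 55% for *MYB60*. These reach below the lowest member, so those names are uncertain. The test rests on 1 library per condition at 14 days, and the aquatic one is that in which 3 transcripts held 36.2% of all counts. The part of that library in the difference cannot be told apart from the harvest.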

How the results depend on the processing

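Over the members, the number lower in aquatic plants was 2 of 9 in all libraries, 4 with DESeq2 (*TMM*, *ICE1*, *SPCH* and *ER*), 5 in the 11-day harvest, 1 with the replicate block and 0 with no harvest term. It was 0 to 5 when libraries were left out, and the number higher was 2 with DESeq2 and otherwise 0. Of all 8155 homologs the block fit called 118 lower and 327 higher, and the fit with no harvest term 9 lower and 25 higher. For the member transcripts the number lower was 5 with DESeq2, 1 with no filter on low counts, 6 in the 11-day harvest, 1 with the replicate block, 0 with no harvest term and 0 with limma on FPKM at either pseudocount without the FPKM minimum, and 0 to 6 when libraries were left out, with 1 higher in DESeq2. Of all transcripts tested, DESeq2 called 4408 lower and 5314 higher. The number lower was 2688 in the 11-day harvest, 956 with the replicate block, 542 with no filter on low counts and 294 with no harvest term. With limma it was 456 on log2(FPKM + 1) and 883 on log2(FPKM + 0.1). In the test of the difference of the aquatic effect between harvests, DESeq2 called 3 members lower (*ER*, *ICE1* and *SDD1*) and 1 higher (*MUTE*). Beside them it called 566 of all 8155 homologs lower and 160 higher. Of the pathway genes, the number higher was 0 with no harvest term, 2 with the replicate block and 0 to 5 without single libraries, and the number lower was 3 with DESeq2, 0 with no harvest term, 0 with the replicate block and 0 to 1 without single libraries. Over all homologs, edgeR called 0 without aquatic replicate 2 (2477 at an unadjusted p under 0.05) and 0 without replicates 2 (1267) or 3 (1367) of both conditions. *SDD1* changed sign in the 11-day harvest (0.177) and lay between -0.308 and 0.175 when single libraries and between -0.37 and 0.177 when replicate pairs were left out, above 0 in the 3 fits without a replicate 1. Of the other values for single genes under an alternative, 221 kept direction and side of the threshold, 23 newly passed and 68 no longer passed, 47 of these without a library. These numbers hold repeats. Leaving out the dominant transcripts of aquatic replicate 1 could change no homolog. The 11-day fit and the fit without replicate 1 of both conditions are the same fit under separate names. Depth limited *TMM*, *SPCH* and *MUTE* in the 14-day libraries. The cause of these changes was not tested. Scaling by total counts alone moved the median of all transcripts to -0.27, against -0.03.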
